A study of Mus musculus with 4 samples.

Results

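The genes described here encode the protein subunits of the cytosolic ribosome, the particle that translates mRNA in the cytoplasm. They were chosen by name: a mouse symbol of the form Rpl or Rps followed by a number, or Rplp0, Rplp1, Rplp2 or Rpsa, with the ribosomal S6 kinases left out. Of 18193 genes measured by a probe set that carries their symbol alone, 49 met this rule, and each was read from the probe set that was brightest on average over the 4 arrays (by mean log2 value). The study used 2 mammary tumor cell lines, 8534 and 8542, each derived from a tumor of a different MMTV-tTA/TOP-ICN1 female mouse (strain given as FVB/N;B6). All 4 samples carry the same transgenes, namely the tetracycline transactivator under the MMTV promoter and the human intracellular form of NOTCH1 (ICN1) under a tet-responsive promoter, so that doxycycline turns ICN1 off. The untreated group (ICN1 On) held 1 culture of each line, and the doxycycline group (ICN1 Off) held 1 culture of each line given 2 µg/ml for 24 hours. Age was not given, and no line without the transgenes was included, so an effect of doxycycline itself cannot be told apart from the loss of ICN1. The lines are the replicates (n = 2 lines), and this number limits the precision of every value. The comparison asked which transcripts change when the NOTCH1 signal is withdrawn.

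Each cytosolic ribosome has a small subunit, which holds and decodes the mRNA, and a large subunit, which forms the peptide bond and carries a stalk that recruits elongation factors. The subunit proteins are needed in equal numbers, with the stalk proteins as an exception, and their mRNAs are among the most abundant in growing cells. Most of these mRNAs begin with a C and a run of pyrimidines (the terminal oligopyrimidine, or TOP, motif), through which mTORC1 and the RNA-binding protein LARP1 regulate their translation.

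To show where pyrimidines lie around the start of members on which the results turn, the 30 bases around the annotated start (10 before it and the first 20 of the transcript) are given 5′ to 3′, with the longest run of C and T in capitals. The sequences are from RefSeq on build GRCm38.p6, in which 43 of the 49 genes had an entry. No entry was matched for Rpl7, Rpl8, Rps14, Rps20, Rps29 and Rps4l. Rpl14 (chr9:120571507-120571536), Rpl12 (chr2:32961702-32961731) and Rpsa (chr9:120127756-120127785) lie on the plus strand and Rpl35 (chr2:39005112-39005141) on the minus strand, and all of these were lower after doxycycline. Rplp2 (chr7:141447641-141447670, plus strand) stands for the stalk. Rps27l (chr9:66946076-66946105, plus strand, at 1 of its annotated starts) and Rpl7l1 (chr17:46782637-46782666, minus strand) are paralogs that were not lower.
Rpl14: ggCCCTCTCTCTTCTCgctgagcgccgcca
Rpl12: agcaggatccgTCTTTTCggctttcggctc
Rpsa: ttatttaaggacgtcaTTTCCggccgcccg
Rpl35: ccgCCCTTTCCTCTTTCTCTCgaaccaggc
Rplp2: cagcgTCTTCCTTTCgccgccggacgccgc
Rps27l: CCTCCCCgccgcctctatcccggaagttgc
Rpl7l1: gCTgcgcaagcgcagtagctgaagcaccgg

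By the annotated starts, the runs of Rpl14, Rpl35 and Rplp2 cover the first transcribed base, which is a C in each. Those of Rpl12 and Rpsa begin after it, and their first base is a G and an A. Those of Rps27l and Rpl7l1 lie wholly before it, so that the marked letters are no TOP motif at these starts. In Rpl7l1 several runs tie at 2 bases, some of them after the start, and the first is marked. The longest pyrimidine runs in this set were those of Rpl35 (18 bases) and Rpl14 (14 bases), and Rpl7l1 had the shortest (2 bases). A run of at least 8 C or T anywhere in this window occurred in 17 of the 43 genes (39.5%), against 13.0% of all 27025 genes with an entry and 13.9% of the genes tested below. The letters CTTTCC, read on the transcribed strand in the same window, occurred in 6 (13.95%), against 1.52% of all genes and 1.499% of those tested. In the 300 bases from 250 before to 50 after the start, CCGGAAG (a core of ETS factor sites) occurred on either strand in 21 (48.8%), against 9.93% of all genes and 17.1% of those tested. CACGTG, the E-box that MYC and other factors bind, occurred on either strand in 4 (9.30%), a share between that of all genes (8.09%) and that of the genes tested (10.7%). These are matches of letters, and factor binding was not measured.

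Both lines expressed luminal keratins, and the 7 luminal markers summed to 21533 units without and 23779 units with doxycycline in line 8534, and to 19613 and 19201 units in line 8542. Of the 6 tested in limma, Krt8 and Krt18 were called higher and Krt19 and Elf5 lower, and Gata3 had at most 4.01 units on any array. The human transgene was not analysed here. The NOTCH1 target Hey1 fell from 1138 to 96.4 units in 8534 cells, and in 8542 cells it fell from 762.3 to 101.04 units (limma adjusted p = 0.000283). The summed signal of the 5 basal epithelial markers was 4453 units without and 7518 units with doxycycline in line 8534, and 190.02 and 247.6 units in line 8542, and 0 of the 4 tested passed the test in limma (1 lower and 1 higher at an unadjusted p under 0.05). That of 6 fibroblast markers was 637.9 and 937.9 against 156.2 and 151.7 units, and of the 5 leukocyte markers measured 159.8 and 299.2 against 90.9 and 92.2 units, with Ptprc at 6.08 to 7.199 units on all arrays. The endothelial and adipocyte lists summed to 106.3 to 246.1 and 19.2 to 29.4 units. The sums of the basal, fibroblast and leukocyte lists were all higher in treated than in untreated 8534 cells, and their part in the changes below was not tested. The members of a list did not all move together. In line 8534 Acta2 read 3012 units without and 6588 units with doxycycline, while Krt14 read 1379 and 869.4 units. Of the 4 basal genes tested, 1 was lower in both lines, 2 were higher in both and 1 moved in opposite directions. For the 6 fibroblast genes these counts were 1, 3 and 2. In RNA from a whole culture, fewer cells of a type and less RNA per cell cannot be told apart.

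The ribosomal protein genes were slightly and broadly lower after doxycycline, and few of them passed the test one by one. The median change over the 46 tested genes was -0.26 on the log2 scale in line 8534 and -0.17 in line 8542, and the median of the mean changes was -0.23, or 1.17-fold lower. The medians over all 15070 genes tested were 0.01, 0.00 and 0.02. In 40 of the 46 genes the treated value was lower in both lines (33.3% of all genes tested), in 2 it was higher in both (34.2%), and in 4 the lines moved in opposite directions. With the 3 genes under the expression filter included, 40 of 49 were lower in both. In 30 of the 46 both treated values lay below both untreated values, against 23.1% of all genes tested. The changes were small: the mean changes ran from -0.97 to 0.46, and the interquartile range was -0.31 to -0.15.

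**Figure D1:**
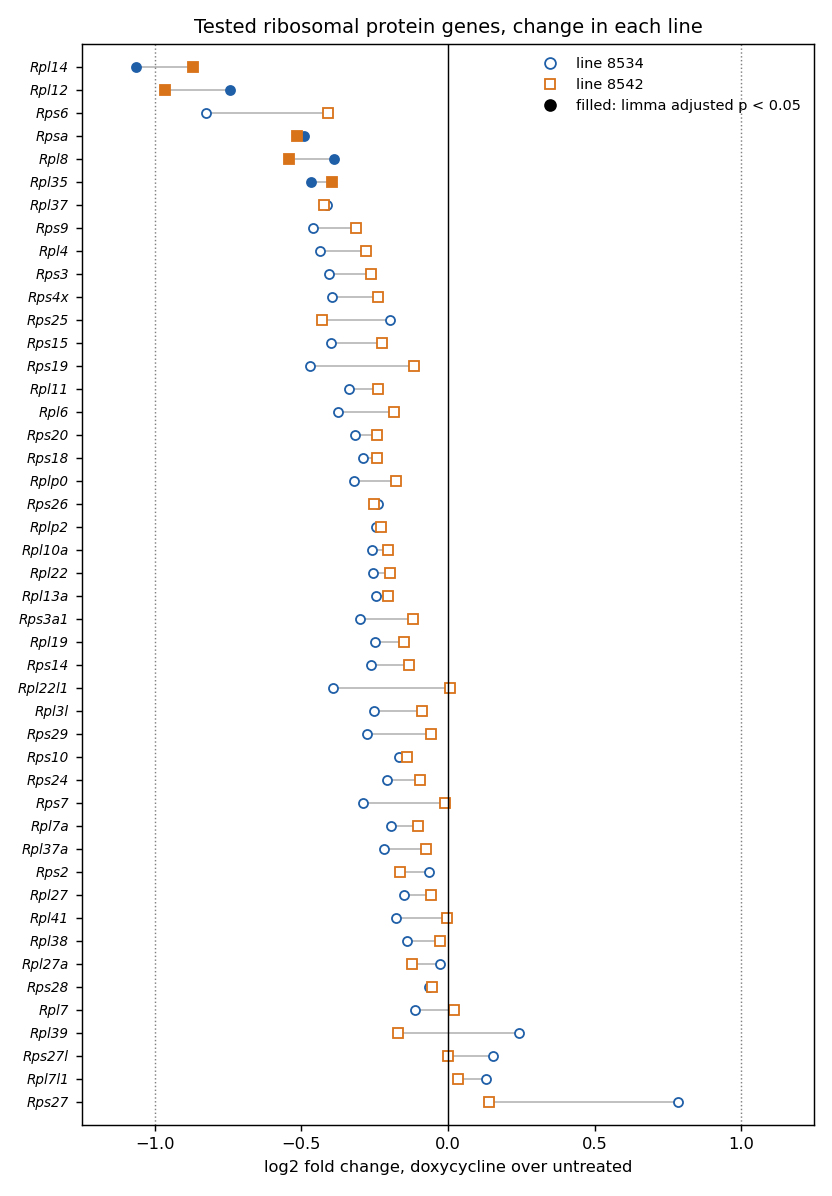
Log2 fold change (doxycycline over untreated, x axis) of each of the 46 tested ribosomal protein genes (rows, ordered by the mean of the lines) in line 8534 (circles) and line 8542 (squares), with dotted lines at a 2-fold change. Filled symbols mark the 5 genes called by limma on both lines together (adjusted p under 0.05), and most of the open symbols also lie left of 0.

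In limma, with the cell line as a block and p values adjusted over all 33778 probe sets tested, 5 of the 46 genes were called lower at an adjusted p under 0.05 and 0 higher. Over all genes tested, 6.95% were called lower and 4.76% higher, so that the share of called members (10.9%) was near that of all genes. At an unadjusted p under 0.05, 23 of the 46 were lower and 0 higher, against 14.1% and 12.4% of all genes. The methods took a gene as a target when both lines passed 2-fold. In either direction 0 of the 49 genes met that rule, against 4.42% (lower) and 3.09% (higher) of all 18193 genes. The 5 calls depend on how the spread is estimated with 1 array per line and condition. No member was called without the line as a block (lowest adjusted p = 0.183, 9 at an unadjusted p under 0.05) or without a spread that follows the signal (lowest adjusted p = 0.253, 2 at an unadjusted p under 0.05).

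Of the 5 genes called lower, 4 encode large subunit proteins. The signal of Rpl14 was 207.2 units without and 99.2 units with doxycycline in line 8534, and 122.1 and 66.8 units in line 8542. Both treated values lay below both untreated values. Averaged over the lines (n = 2), the log2 change was -0.97 ± 0.14 (SD), or 1.95-fold lower, with a limma adjusted p of 0.0191, and in line 8534 the fall was 2.09-fold. Rpl12, which sits at the base of the stalk, had 232.3 and 138.8 units in line 8534 and 230.8 and 118.1 units in line 8542. The untreated values were alike in the lines and the groups did not overlap. Its mean change was -0.85 ± 0.16, or 1.81-fold lower (limma adjusted p = 0.0202). Rpl14 and Rpl12 each had 1 probe set of their symbol alone, at mean log2 values of 6.83 and 7.43. Of the 46 tested members, 33 had a mean log2 value of 12 or more, and dimmer member probe sets had larger falls in the median (below). Whether the probe sets of Rpl14 and Rpl12 follow the bulk of their mRNA was not tested.

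Rpl8 lies near the peptidyl transferase centre, where peptide bonds are made. Its signals were 4370 and 3335 units in line 8534 and 4007 and 2752 units in line 8542, with no overlap between the groups. The mean change was -0.47 ± 0.11, or 1.38-fold lower (limma adjusted p = 0.0326). Rpl35, at the mouth of the tunnel through which the new peptide leaves, had 5528 and 4001 units in line 8534 and 4814 and 3662 units in line 8542. Again both treated arrays were the lower ones. Its mean change was -0.43 ± 0.051, or 1.35-fold lower (limma adjusted p = 0.0362). Its probe set, 1434231_x_at, is of a design that can also bind related transcripts.

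Rpsa, a small subunit protein also known as a laminin receptor, was the small subunit gene called lower. It had 6376 and 4531 units in line 8534 and 5674 and 3971 units in line 8542, so that the groups did not overlap. The mean change was -0.50 ± 0.016, or 1.42-fold lower (limma adjusted p = 0.0189), and the lines differed little. A second Rpsa probe set lay near background at a mean log2 value of 1.21 and was not tested. After quantile normalization of the 4 arrays, the calls of Rpsa (adjusted p = 0.0550), Rpl8 (0.0861) and Rpl35 (0.118) in limma were lost, while those of Rpl14 (0.0295) and Rpl12 (0.0321) were kept.

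**Figure D2:**
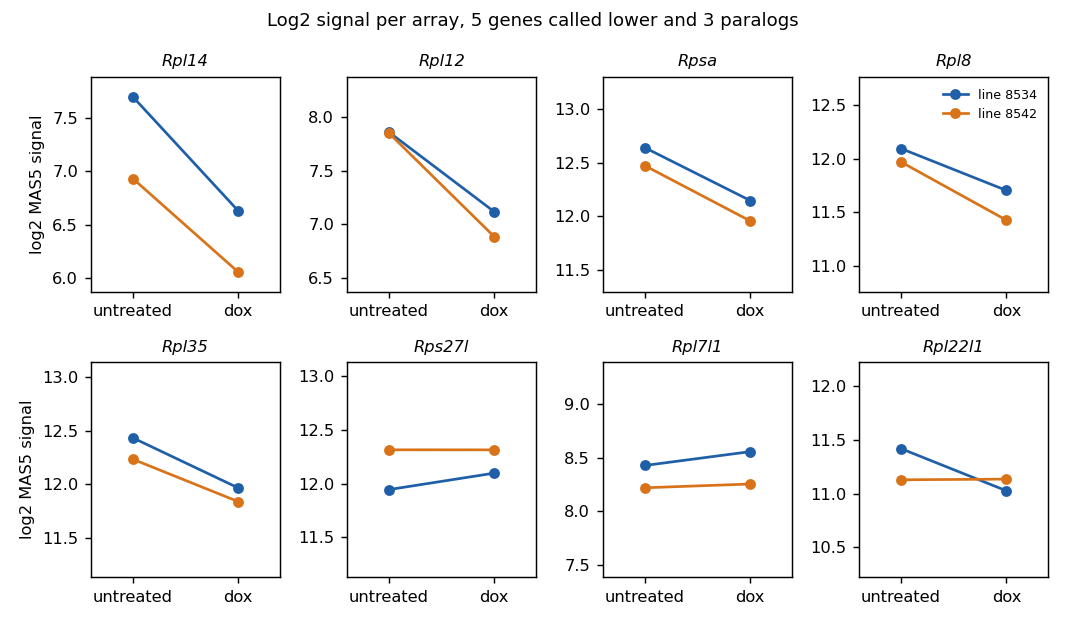
Log2 MAS5 signal (y axis, the same span of log2 units in each panel) on the untreated and doxycycline (dox) arrays, joined within line 8534 (blue) and line 8542 (orange), 1 array per point. The 5 genes called lower fell in both lines, whereas the largest change of the paralogs Rps27l and Rpl7l1 was 0.15 and Rpl22l1 was lower in line 8534 alone.

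Of the other large subunit genes tested, most were lower in both lines without a call. Rpl37 had 2023 and 1519 units in line 8534 and 1899 and 1416 units in line 8542, and its limma adjusted p was 0.0527. Rpl4, whose protein lines the exit tunnel, changed by -0.44 and -0.28 in the lines (limma adjusted p = 0.0738). Rpl11, which with Rpl5 and the 5S rRNA can bind MDM2, had 4182 and 3310 units in line 8534 and 3901 and 3303 units in line 8542. Its groups did not overlap, and its mean change was -0.29 ± 0.069 (limma adjusted p = 0.135). Rpl22, read from its brightest probe set, changed by -0.25 and -0.20 (limma adjusted p = 0.215). Its 2 dimmer probe sets were both called lower, with mean changes of -0.53 and -0.78 (limma adjusted p = 0.0234 and 0.0196). With all its probe sets averaged, Rpl22 was called lower too (limma adjusted p = 0.0472). The genes not lower in both lines were Rpl7, with changes of -0.11 and 0.02, and Rpl39, with 0.24 and -0.17. In all, 18 of the 20 large subunit genes tested were lower in both lines, against 33.3% of all genes tested. Of the 20, 4 were called lower (20%, against 6.95% of all genes tested), and the median mean change was -0.23.

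In the small subunit, 19 of 20 tested genes were lower in both lines, against 33.3% of all genes tested. Of the 20, 1 was called lower (5%, against 6.95% of all genes tested), and the median mean change was -0.26. Rps6, the substrate of the S6 kinases, had 370.2 and 209.1 units in line 8534 and 303.2 and 228.4 units in line 8542. Both treated values were the lower ones. The change was -0.82 in line 8534 and -0.41 in line 8542, and the limma adjusted p was 0.0603. A dimmer Rps6 probe set, at a mean log2 value of 3.98, changed by 0.11 and 0.19. With both averaged, the mean change was -0.23 (limma adjusted p = 0.571). Rps9 (limma adjusted p = 0.0578), Rps3 (0.0889), which lies at the mRNA entry site, and the X-linked Rps4x (0.101) had mean changes of -0.39, -0.34 and -0.32. With all probe sets of a gene averaged, Rps9 was called lower (limma adjusted p = 0.0321), and Rps3 (0.677) and Rps4x (0.765) were not called. Rps19, a gene mutated in Diamond-Blackfan anemia, was lower by 1.39-fold in line 8534 and by 1.08-fold in line 8542 (limma adjusted p = 0.190). Rps27 was the exception: its probe set (1460699_at) had 123.0 and 211.7 units in line 8534 and 78.3 and 86.4 units in line 8542. Both treated values were higher than the untreated value of the same line, but the groups overlapped, and the mean change of 0.46 ± 0.45 had a limma adjusted p of 0.264. Rps16 could not be read from its single-symbol probe set, which gave 0.557 to 1.89 units on the 4 arrays.

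The stalk was represented by Rplp0, its anchor on the large subunit, and Rplp2, and Rplp1 had no probe set of its own name. Rplp0 had 7626 and 6104 units in line 8534 and 6886 and 6095 units in line 8542. Rplp2 had 6617 and 5577 units in line 8534 and 6516 and 5565 units in line 8542. In both genes the treated arrays were the lower ones, with little difference between the lines for Rplp2. Their mean changes were -0.25 and -0.24, and neither passed the test (limma adjusted p = 0.182 and 0.188).

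The paralogs, which are related copies of subunit protein genes, had changes on either side of 0. Of the 4 tested, 1 was lower in both lines, against 33.3% of all genes tested. None (0) was called, against 6.95% lower and 4.76% higher of all genes tested, and the median mean change was -0.05. Rps27l, the paralog of Rps27 and a known target gene of p53, had 3941 and 4383 units in line 8534 and 5097 and 5095 units in line 8542. Its 3 probe sets had mean changes of 0.08, 0.14 and 0.10. Rpl7l1, the paralog of Rpl7, had 344.4 and 376.6 units in line 8534 and 298.2 and 305.5 units in line 8542. It too had 3 probe sets with positive mean changes, the highest 0.15. Rpl22l1, the paralog of Rpl22, had 2738 and 2086 units in line 8534 and 2239 and 2249 units in line 8542, so that the treated value was lower in line 8534 alone. Rpl3l, which is typical of muscle, had 6.36 to 15.9 units over the arrays and changes of -0.25 and -0.09. Rpl39l and Rps4l were under the expression filter, with at most 3.57 units on any array, and the log2 change of 1.58 for Rps4l in line 8542 lay between 0.9645 and 2.88 units. No paralog was called in either direction, and a difference between the paralogs and the other genes was not tested.

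The changes were larger in line 8534 than in line 8542 for most members. In 34 of the 46 genes the change in line 8534 was the more negative one, as it was in 7570 of all 15070 genes tested. The median of the change in line 8534 minus that in line 8542 was -0.09 over the members. The difference between lines cannot be tested with 1 pair of arrays each, and an exact test over 2 lines cannot give a p under 0.5.

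**Figure D3:**
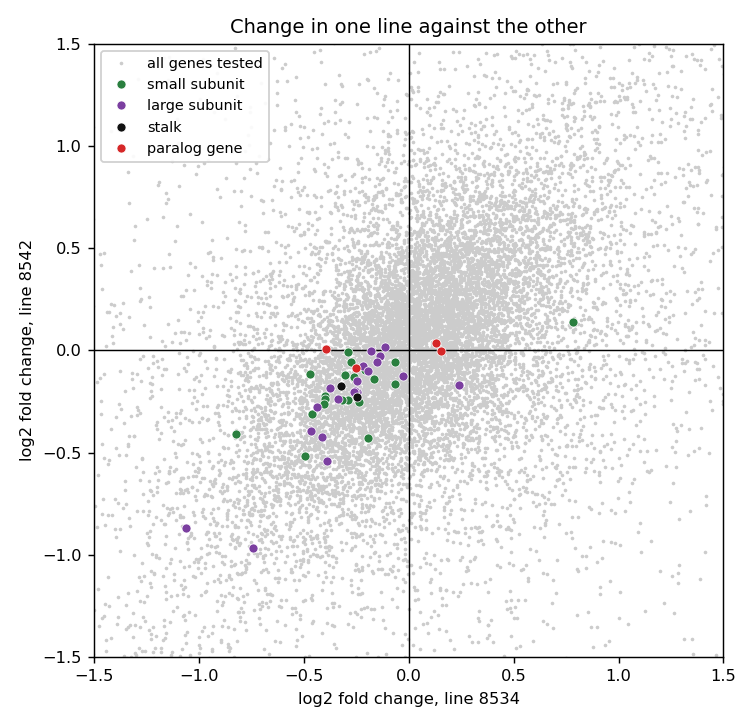
Log2 fold change (doxycycline over untreated) in line 8534 (x axis) against line 8542 (y axis) for the tested ribosomal protein genes, colored by class, and for all genes tested (gray; points beyond 1.5 are not drawn). The small subunit, large subunit and stalk genes lie mostly below and left of 0, with Rps27 as the green point on the right at 0.78 and 0.14.

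The size of the change went with the signal of the probe set. The members have 105 probe sets that carry their symbol alone, of which 100 were tested. Of these, 17 were called lower and 0 higher, against 5.54% and 3.69% of all 33778 probe sets tested, and 86 were lower in both lines. The 50 member probe sets with a mean log2 value of 12 or more had a median mean change of -0.22 with 2 calls, and the 50 below it had -0.46 with 15 calls. Over the other probe sets the medians were -0.09 (n = 70) and 0.02 (n = 33501). Of these, 32 of the 70 and 10662 of the 33501 were lower in both lines. Probe sets of 1 gene share its transcripts and are not replicates.

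The same order was seen within genes. In 15 of the 22 genes with at least 2 tested probe sets, the other, dimmer probe sets had a more negative mean change than the one that stands for the gene. Over the 22 genes the median change was -0.16 for the brightest probe set and -0.43 for the others. Some of the others had low signals, where the lines differed widely. A probe set of Rpl27a at a mean log2 value of 3.38 changed by -1.46 in line 8534 and -0.41 in line 8542. One of Rps3 at 4.36 changed by 2.09 and -1.67. Of all tested member probe sets, 15 had a mean log2 value under 6, and 0 of these were called. Over all members, 11 genes had at least 1 probe set called lower. Genes with more probe sets have more chances of such a call, and its share over all genes was not taken. Rpl13a is an example, a large subunit protein that also takes part in translational silencing in inflammation. Its 4 probe sets had mean log2 values of 12.63, 12.01, 11.12 and 9.86. Their mean changes were -0.23, -0.36, -0.63 and -0.88, with limma adjusted p of 0.210, 0.0701, 0.0119 and 0.00466. The 2 dimmest were thus called, while the one at 12.01 and the one that stands for the gene were not. Whether the signal range sets these differences was not tested.

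**Figure D4:**
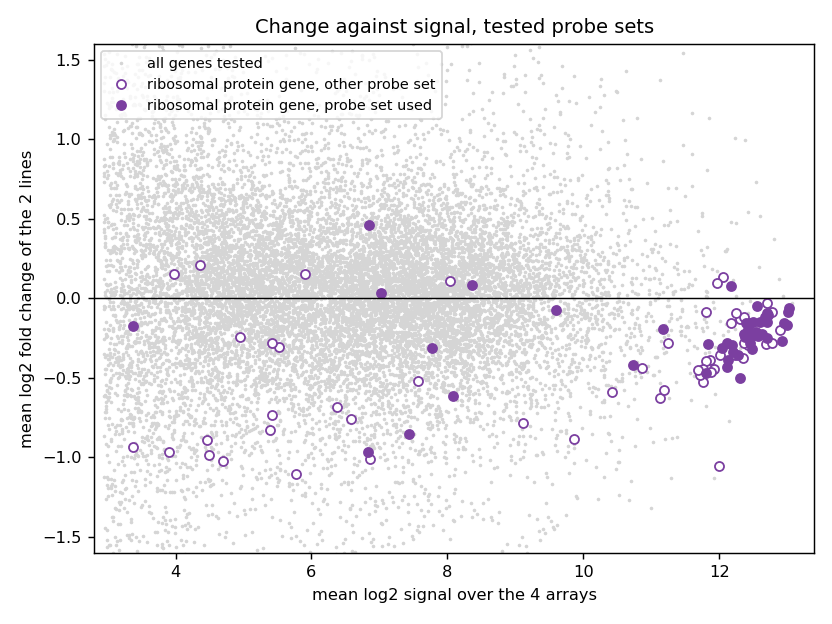
Mean log2 fold change of the lines (y axis; values beyond 1.6 are not drawn) against the mean log2 signal over the 4 arrays (x axis) for the 100 tested probe sets of ribosomal protein genes (filled, probe set that stands for the gene; open, other probe sets) and for all genes tested (gray). The filled points crowd at a log2 signal of 12 or more just below 0, and many open points at lower signals lie further down.

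Most members lie at the top of the signal range, so they were also set beside other genes there. Of the 46 tested members, 33 had a mean log2 value of 12 or more. Among these 33, 31 were lower in both lines and 2 were called lower. Of the 31 other genes in that range, 11 were lower in both lines, 1 was called lower and 5 higher. The median mean change was -0.23 for the members and 0.01 for the others, a difference of -0.24. After quantile normalization these medians were -0.088 and 0.15, with a difference of -0.23. Over all 46 members quantile normalization moved the median to -0.11 and left 31 lower in both lines, while the median of all genes was 0.05. The size of the decrease thus depends on the scaling.

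A further 28 symbols that meet the name rule, Rplp1, Rpl3, Rpl5, Rpl10 and Rpl23 among them, occur only on probe sets that list several symbols. Ribosomal protein genes have many processed copies in the genome, and such probe sets cannot be given to 1 gene. The 107 tested probe sets that pair a ribosomal protein symbol with others had a median mean change of -0.28, or 1.21-fold lower. Of these, 94 were lower in both lines, against 33.3% of all genes tested (1 probe set per gene). Of the 107, 15 were called lower and 1 higher, against 5.54% and 3.69% of all probe sets tested. Of the 49 probe sets that stand for a member, 15 likewise bear a mark for designs that match several transcripts. Without such designs, 41 members were tested, 6 were called lower and the median was -0.28. With the brightest probe set per gene, 6.95% of all genes tested were called lower.

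Other genes of translation were read from lists. Fau, a small subunit protein that is made as a fusion and is outside the name rule, had changes of -0.32 and -0.28 (limma adjusted p = 0.113). Of the 76 mitochondrial ribosomal protein genes tested, 5 were called lower (6.58%, against 6.95% of all genes tested) and 0 higher. In both lines 54 were lower, against 33.3% of all genes tested, and the median mean change was -0.24. Mrpl12 had the largest called decrease (-0.93, limma adjusted p = 0.0135). Of 13 elongation factor and other TOP mRNA genes, 4 were called lower (30.8%, against 6.95% of all genes tested), with a median of -0.38. Nap1l1 (-1.48, limma adjusted p = 0.00143), Eef1d, Npm1 and Pabpc1 fell, although the call of Eef1d was lost when all its probe sets were averaged (limma adjusted p = 0.336) and that of Pabpc1 after quantile normalization (0.0540). The elongation factors Eef1a1 (-0.10 and 0.05 in the lines) and Eef2 (-0.46 and -0.22, limma adjusted p = 0.106) and Tpt1 (-0.07 and 0.09) did not pass the test.

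The machinery that assembles ribosomes was lower as well. Of 46 tested genes of ribosome assembly and the nucleolus, 15 were called lower (32.6%, against 6.95% of all genes tested) and 0 higher. In 41 the treated value was lower in both lines, against 33.3% of all genes tested, and the median mean change was -0.48. Fbl, the rRNA methyltransferase fibrillarin, fell from 1365 to 581.8 units in 8534 cells, and in 8542 cells it fell from 1207 to 392.03 units (limma adjusted p = 0.00152). Nop56 and Dkc1, of the small nucleolar RNA particles, had mean changes of -1.36 and -1.32. The median of these genes was -0.32 in line 8534 and -0.71 in line 8542, so that here line 8542 had the larger change, opposite to the subunit proteins. Of 11 chaperones and importers of ribosomal proteins, 3 were called lower (27.3%, against 6.95% of all genes tested), with a median of -0.57. These were Nap1l1, Grwd1 and Ipo7. The lists overlap: Nap1l1 is also among the TOP mRNA genes above, and Grwd1 is also among the assembly genes. With all probe sets averaged, Grwd1 (limma adjusted p = 0.0682) and Ipo7 (0.318) lost their calls. Without the line as a block, Hey1 alone of the called genes in these and the marker lists stayed under 0.05 (limma adjusted p = 0.0425). No test of a difference between these lists was run.

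**Figure D5:**
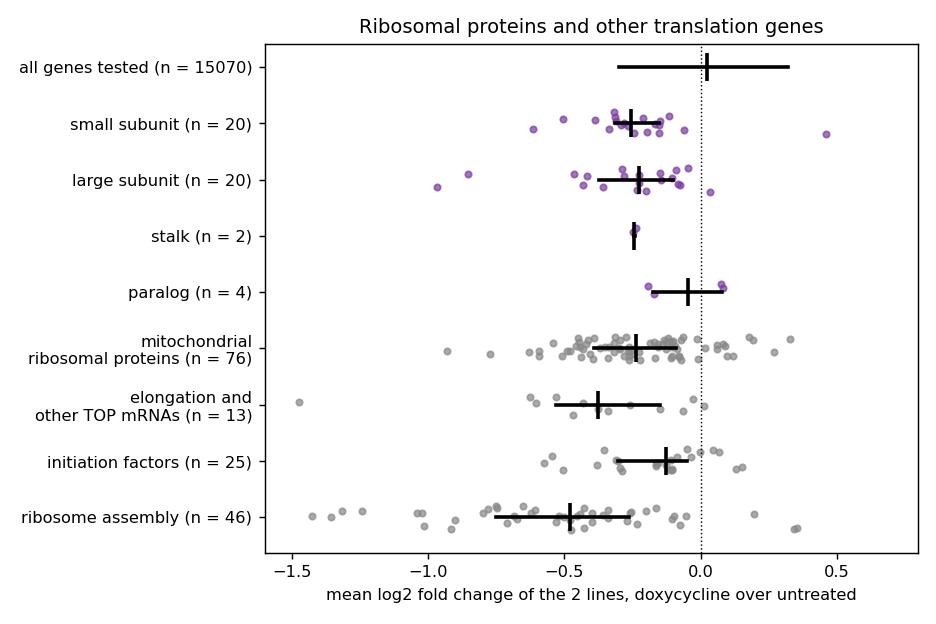
Mean log2 fold change of the lines (x axis, doxycycline over untreated) for the ribosomal protein genes by class (purple) and for other translation genes by list (gray), 1 point per tested gene, with the median (vertical bar) and the interquartile range (horizontal bar). For all 15070 genes tested only the median and that range are drawn. The medians of the small subunit, large subunit and stalk genes (-0.26, -0.23 and -0.24) lie near that of the mitochondrial ribosomal proteins (-0.24) and nearer to 0 than that of the assembly genes (-0.48).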

How the data were processed

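The authors processed the arrays with MAS5, in which all arrays share a trimmed mean, and deposited log2 signals. Base 2 was inferred from the values, since it gave trimmed means of 97.7 to 101.8 units on the 4 arrays. The sources used here do not give the MAS5 version or its target. The array named in the methods is the A version, but the table holds the 45101 probe sets of the full one. Of these, 64 controls were left out, and 34945 had 1 symbol, 932 several and 9160 none in the platform annotation. All 49 symbols matched RefSeq by gene ID, and no value column was left unmapped (0). Fold changes are 2 to the power of log2 differences.

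Limma 3.58.1 in R 4.3.3 was fitted with line and treatment as terms and an intensity trend (residual df 1, prior df 6.18), over 33778 probe sets with a mean log2 value at or above the 25th percentile (2.94), with Benjamini-Hochberg adjustment. It was run on simulated data with planted changes larger than the median change of the members, so that run does not cover changes of the median size. The line was the block because both cultures of a line come from the same tumor, and deviations of the arrays of a line correlated at 0.36. Nothing says whether the cultures were grown independently, so p values measure only the spread between these samples. The members and lists were chosen with earlier results of these data known. Genes were named by a rule: stalk proteins, paralogs and their parents, MDM2 binders, Rps6, Rps19, Rpsa, the 8 largest rises and 8 largest falls, members past 2-fold in a line, the 10 lowest adjusted p, and up to 3 called genes per list. Rpl13a and Rps16 were added after their values were seen. Alternatives were other filters, quantile normalization, median centring, a floor at the 20th percentile (5.52 units), other choices of probe set, no block, no trend and leaving out a line. A few more were added after seeing the data.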

Additional observations from a re-analysis of the deposited data

Results flagged for a closer look

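In 5 of the named genes the lines moved in opposite directions, as did Rps16 (0.91 in line 8534 and -0.17 in line 8542), whose probe set was under 2 units on every array. The change in line 8542 minus that in line 8534 was 0.40 for Rpl22l1, 0.13 for Rpl7, -0.15 for Rps27l, -0.41 for Rpl39 and -0.48 for Rpl39l on the log2 scale. In line 8542 the change of Rpl22l1 was 0.0064 and that of Rps27l was -0.00065, and Rpl39l had at most 3.57 units on any array. With 1 pair of arrays per line none of these differences was tested. Over all 15070 genes tested, 4886 moved in opposite directions in the lines.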

How the results depend on the processing

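The count of 5 members called lower by limma became 2 without an expression filter (Rpl12 and Rpl14), 10 of 45 with a filter at the 50th percentile, 2 after quantile normalization (Rpl12 and Rpl14) and 17 of 100 when every member probe set was counted, an alternative added after seeing the data. With all probe sets of a gene averaged it was 7, of which 2 (Rpl12 and Rpl14) were among the 5, while Rpl8 (limma adjusted p = 0.0698), Rpl35 (0.0838) and Rpsa lost their calls. Under median centring it was 4, without Rpl35 (limma adjusted p = 0.0545), and it was 7 with the floor and 6 without probe sets of shared design, each including all 5. The count called higher was 0 under all of these. Without the replicate block the paired arrays are treated as independent, and the count called lower was 0, with 83 probe sets called lower and 9 higher over the whole array in place of 1872 and 1245. Without the intensity trend that count was also 0, with 0 lower and 0 higher over the array. The median change of -0.23 became -0.11 after quantile normalization, and was -0.26 to -0.17 when either line was left out. It kept its sign under every alternative run. With all probe sets of a gene averaged, Rpsa changed sign to 0.13 (limma adjusted p = 0.813) and Rps4x to 0.11, where each has a second probe set near background, and after quantile normalization Rpl7 changed sign to 0.10. With either line left out, values ran from -0.39 to 0.0064 for Rpl22l1, from -0.17 to 0.24 for Rpl39, from -0.085 to 0.40 for Rpl39l, from -0.11 to 0.019 for Rpl7 and from -0.00065 to 0.15 for Rps27l, so that each changed sign without line 8534. For the named genes, 237 values were counted as unchanged in direction and call, 19 lost a call, 10 gained one and these 8 changed sign. The 237 include values without a p (a line left out, or genes under the filter), which have no side of the threshold. They also include Rpl39l and Rps4l with the floor, where the change became 0. Except where stated, the cause was not tested. With 1 array per line and condition, changes of the size of the median were not called by limma in this design, in which the standard error of the members had a median of 0.099.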

Other observations

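Genes that regulate translation were mostly not called. Of 25 tested initiation factor genes, 1 was called lower (4%, against 6.95% of all genes tested) and 0 higher, with a median mean change of -0.13. It was Eif4a2, a helicase that unwinds mRNA (-0.61 and -0.40 in the lines, limma adjusted p = 0.0363, and 0.0637 after quantile normalization). Of 14 tested genes of the mTORC1 and S6 kinase pathway, 0 were called lower and 1 higher, with a median of 0.01. Over all genes tested these shares were 6.95% and 4.76%. The called gene was Eef2k, the kinase that inhibits elongation factor Eef2. It read 32.8 units without and 68.4 units with doxycycline in line 8534, and 34.001 and 87.3 units in line 8542 (limma adjusted p = 0.0264, and 0.175 with all its probe sets averaged). Larp1, which binds TOP mRNAs, had changes of -0.19 and -0.32 (limma adjusted p = 0.287).

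Mdm2, the p53 ubiquitin ligase to which Rpl11 can bind, rose from 424.1 to 844.7 units in 8534 cells, and in 8542 cells it rose from 450.1 to 857.3 units (limma adjusted p = 0.00396), a call that was lost when all its probe sets were averaged (0.598). Cdkn1a, a p53 target that inhibits cyclin-dependent kinases, rose from 1312 to 2775 units and from 1404 to 2237 units (limma adjusted p = 0.00716). The treated values of both genes lay above all their untreated values. Among the endothelial markers Tek fell from 129.7 to 18.3 units in 8534 cells, and in 8542 cells it fell from 20.03 to 7.69 units (limma adjusted p = 0.0303). Whether any of these is linked to the ribosomal protein genes was not tested.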
